A study of Mus musculus with 3 samples.

Results

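The insulin-like growth factor (IGF) system was followed through 10 genes, namely the ligands Igf1 and Igf2, the receptors Igf1r and Igf2r, and the binding proteins Igfbp2, Igfbp3, Igfbp4, Igfbp5, Igfbp6 and Igfbp7. They are 10 of the 18193 genes that have a probe set of their own on the arrays, and they were listed by name with earlier results of these data known, so their ratios are given as a description. Muscle stem cells (MuSC, satellite cells) were isolated from female C57BL/6 mice that were wild-type and 8 weeks old. They were sorted as CD34+ α7 integrin+ cells and measured on 3 Affymetrix arrays. Fresh MuSC were taken straight after sorting, MuSC −OSM were cultured for 3 days in 10% FBS, and MuSC +OSM were cultured in the same way with 100 ng/mL Oncostatin M (OSM), a cytokine of the interleukin-6 family. Fresh MuSC thus differ from the cultures in tissue digestion and sorting just before lysis as well as in culture. With 1 array per condition there were no replicates, so no test was possible and no difference has a replicate check. The study describes its OSM regulation data as a mean of biological replicates, while 1 array per condition was analysed here, and whether an array value stands for more than 1 sample or animal is not stated. The labels give 10% FBS, whereas the methods describe standard culture with more serum and with basic FGF, so the medium behind every ratio is not settled.

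IGF1 and IGF2 are secreted growth factors that act mainly through IGF1R, a tyrosine kinase receptor, to drive growth, survival and, in muscle cells, both proliferation and differentiation. IGF2R, the mannose 6-phosphate receptor, takes up IGF2 for degradation. The IGF binding proteins are secreted, hold the ligands in blood and around cells, and can limit or prolong their action, and proteases that cleave them free the ligand.

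The values are MAS5 signals, which condense the probes of 1 probe set to a signal on a linear scale. Of several probe sets for a gene, the one with the highest mean over the arrays gave its value and the rest served as a check. Signals under a floor of 40 were raised to it before a ratio was taken. Across genes with 2 probe sets above the floor, the log2 ratios of both probe sets differed by a median of 0.32 in MuSC +OSM over MuSC −OSM (4290 genes) and by 0.46 in fresh MuSC over MuSC −OSM (4276 genes). This spread lies within the arrays and does not cover differences between cultures or animals. RNA integrity was read from the 3′ to 5′ signal ratio of β-actin, at 2.35 for fresh MuSC, 1.40 for MuSC −OSM and 1.41 for MuSC +OSM. The 3′ to 5′ ratio of Gapdh was 1.36, 1.14 and 0.90 in the same order. Signals were above the floor for 56.8%, 47.3% and 45.9% of probe sets in the same order. Of 10 satellite cell markers 10 lay above the floor in fresh MuSC and 8 in each culture, with Cd34 and Calcr under it in both cultures. The 10 markers summed to 37881 before culture, 5302 without OSM and 7189 with OSM. In fresh MuSC over MuSC −OSM 7 of them passed 2-fold upward and 1 downward, namely Itga7, at 499, 1808 and 1238. Of the 10 IGF genes 6 passed 2-fold upward in that comparison, beside 20.4% of all measured genes. In RNA of mixed cells, fewer cells of a type and less RNA per cell cannot be told apart.

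Igfbp4 and Igfbp5 were the only members at least 2-fold apart between the cultures, whereas Igfbp6 was high in fresh MuSC and low in both cultures. The 250 bases before the RefSeq start of these 3 genes are therefore shown (build GRCm38.p6, each 5′ to 3′ on the strand of its gene), with capitals marking a match to the TATA box TATAAA on either strand.
Igfbp4, chr11:99040994-99041243, plus strand: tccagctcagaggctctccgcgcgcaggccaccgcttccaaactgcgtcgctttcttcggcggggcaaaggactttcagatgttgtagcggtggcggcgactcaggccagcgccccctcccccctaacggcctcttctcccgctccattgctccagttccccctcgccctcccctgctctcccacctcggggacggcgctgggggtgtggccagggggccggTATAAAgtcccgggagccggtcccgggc
Igfbp5, chr1:72874866-72875115, minus strand: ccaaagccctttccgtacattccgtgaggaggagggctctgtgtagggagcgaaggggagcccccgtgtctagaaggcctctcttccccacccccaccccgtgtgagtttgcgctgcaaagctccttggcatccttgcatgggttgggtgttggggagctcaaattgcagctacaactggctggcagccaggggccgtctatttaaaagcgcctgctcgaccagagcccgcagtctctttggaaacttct
Igfbp6, chr15:102143936-102144185, plus strand: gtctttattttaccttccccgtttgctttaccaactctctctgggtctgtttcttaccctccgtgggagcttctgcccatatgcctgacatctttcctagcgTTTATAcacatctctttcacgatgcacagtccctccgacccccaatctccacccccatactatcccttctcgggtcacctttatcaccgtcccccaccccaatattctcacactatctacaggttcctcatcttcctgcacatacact
The Igfbp4 match lies on the strand of the gene at positions -28 to -23 from the start, and the Igfbp6 match lies on the opposite strand at positions -148 to -143. The same letters were found in 12.4% of the 32851 windows of this length in the promoter table. Matches to the STAT motif TTCNNNGAA (7.02% of windows), the C/EBP motif TTGCNNAA (9.56%), the AP-1 motif TGANTCA (6.75%) and the GC box GGGCGG (32.7%), searched on both strands, were not found in these 3 windows. None of the 14 windows of the 10 genes held the STAT or C/EBP letters, which says nothing of sites outside them. GC made up 69.2% of the Igfbp4 window, 58.8% of the Igfbp5 window and 49.6% of the Igfbp6 window, against a median of 52.4% over all windows.

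In MuSC +OSM over MuSC −OSM, 2 of the 10 genes were at least 2-fold higher and 0 were at least 2-fold lower. Among all 11271 measured genes 6.07% were higher and 4.39% were lower. Both higher genes encode binding proteins. The median log2 ratio of the 10 genes was -0.02, beside -0.01 over all measured genes.

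**Figure D1:**
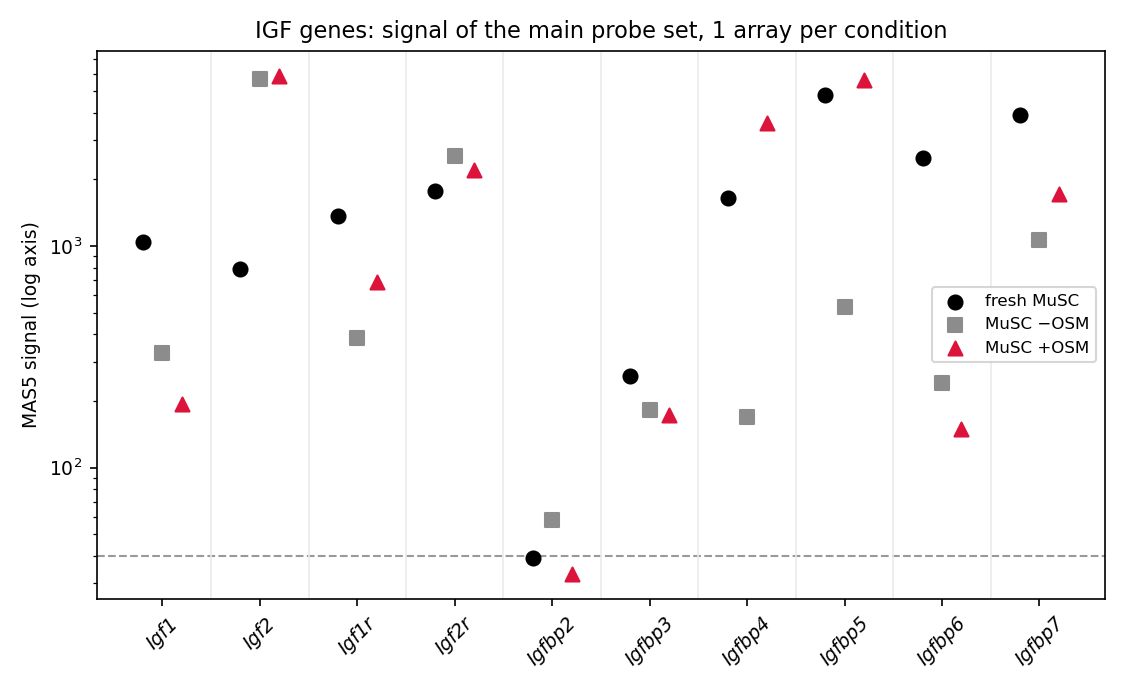
Signals of the 10 genes by their main probe set (MAS5 units, log axis) in fresh MuSC (black circles), MuSC −OSM (gray squares) and MuSC +OSM (red triangles), 1 array each, with a dashed line at the floor of 40. The Igfbp4 points of the cultures are at 169 and 3601, those of Igf2 at 5702 and 5881.

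Igfbp4, a binding protein that holds IGFs until it is cleaved by the protease PAPP-A, had signals of 1649 before culture, 169 without OSM and 3601 with OSM. Its signal was 21.3-fold higher with OSM than without (log2 ratio 4.41) and 2.18-fold above fresh MuSC. Among the 9800 genes above the floor in both cultures, this ratio was the 4th highest. Igfbp4 has 6 probe sets, and the 5 above the floor in both cultures were 5.52-fold to 21.3-fold higher with OSM. The sixth had a signal of 53 with OSM and 8, under the floor, without it. The size of the Igfbp4 difference thus varied between probe sets, while its direction did not.

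Igfbp5, which binds IGFs and extracellular matrix, had signals of 4793 before culture, 530 without OSM and 5599 with OSM. It was 10.6-fold higher with OSM than without (log2 ratio 3.40), the 14th highest ratio among the same 9800 genes. The array of MuSC +OSM lay 1.17-fold above that of fresh MuSC. Its other probe set was far dimmer, with 186 before culture, 101 without OSM and 69 with OSM, and went the other way with OSM (log2 ratio -0.55). Against MuSC −OSM, both Igfbp5 probe sets were higher in fresh MuSC. The Igfbp5 difference with OSM therefore rests on 1 probe set. Igfbp2, the neighbour of Igfbp5 on chromosome 1, read 39 before culture, 58 without OSM and 33 with OSM, at or near the floor on all 3 arrays.

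The other binding proteins lay within 2-fold between the cultures. Igfbp7, which binds IGFs only weakly, had signals of 3897 before culture, 1070 without OSM and 1728 with OSM, or 1.61-fold higher with OSM, and its other probe sets read 120, 27 and 46, and 82, 4 and 3. Igfbp6, which prefers IGF2 over IGF1, had 2510, 242 and 149 in the same order, or 1.62-fold lower with OSM. It has a single probe set, so its ratios have no check by another. Igfbp3, the main IGF carrier of blood, had 259, 182 and 172, and 142, 154 and 99 by its other probe set. Only Igfbp4 and Igfbp5 among the 6 binding proteins were thus more than 2-fold apart with OSM, Igfbp5 by its brighter probe set.

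Neither ligand passed 2-fold between the cultures. Igf2, an imprinted gene whose product differentiating muscle cells secrete and which acts on them, had signals of 789 before culture, 5702 without OSM and 5881 with OSM. It differed by 1.03-fold between the cultures. Its other probe set was near the floor, at 31, 63 and 33 in the same order. Igf1 had 1043, 330 and 193, or 1.71-fold lower with OSM. All 4 Igf1 probe sets had a lower signal with OSM, from 1.19-fold to 2.05-fold lower.

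The receptors were also within 2-fold between the cultures. Igf1r had signals of 1369 before culture, 385 without OSM and 686 with OSM, or 1.78-fold higher with OSM. Of its 4 other probe sets 3 were higher with OSM too, by 1.31-fold to 1.54-fold, and in the remaining one both cultures were under the floor. Igf2r had 1782, 2543 and 2202, with OSM 1.15-fold lower by this probe set and 1.96-fold lower by the other. With every array scaled to the same median, Igf1r reached the 2-fold threshold with OSM.

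**Figure D2:**
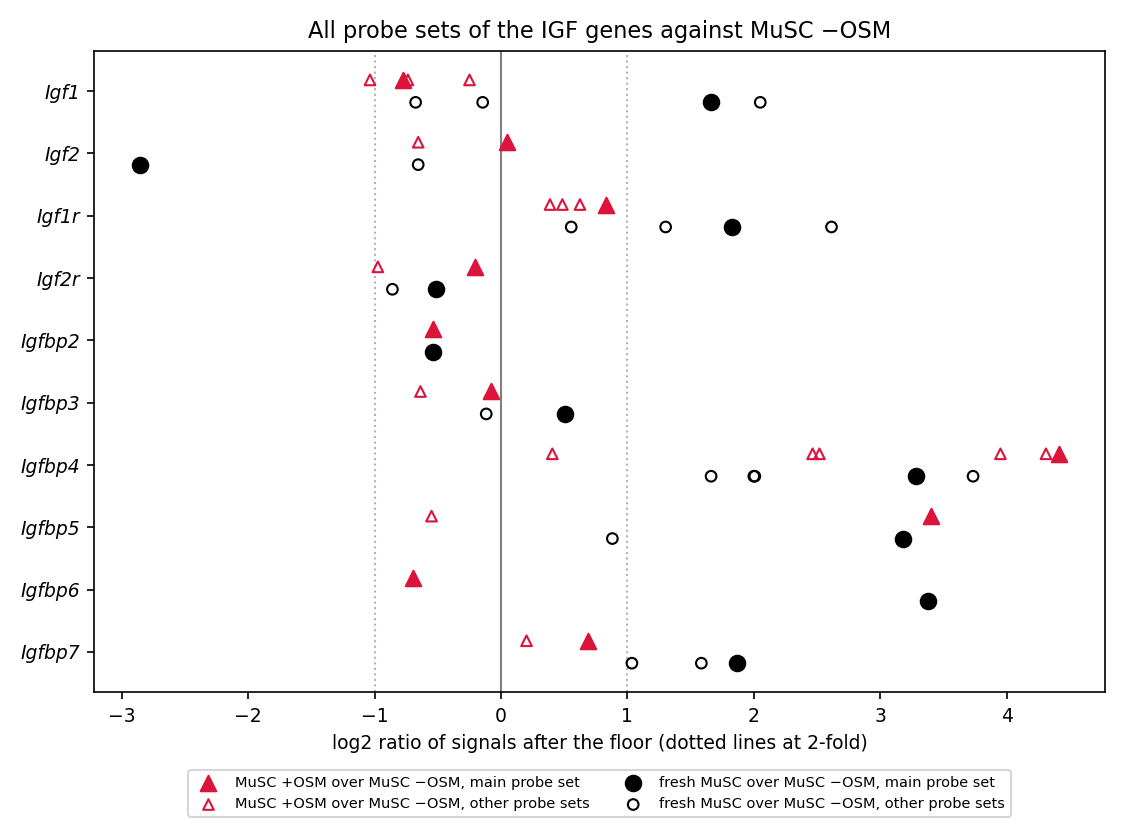
Log2 ratios to MuSC −OSM for every measured probe set of the 10 genes, with red triangles for MuSC +OSM and black circles for fresh MuSC, the main probe set filled, the others open, and dotted lines at 2-fold. The Igfbp4 triangles are all above 0, with the main one at 4.41, whereas those of Igfbp5 lie at 3.40 and -0.55.

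In fresh MuSC over MuSC −OSM, 6 of the 10 genes passed 2-fold upward and 1 downward. Over all 12755 measured genes 20.4% were higher and 15% were lower. The median log2 ratio of the 10 genes was 1.75, beside 0.14 over all measured genes. This comparison shares the MuSC −OSM array with the one above, so a low value there raises both ratios.

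The higher genes were Igf1, Igf1r and the binding protein genes Igfbp4, Igfbp5, Igfbp6 and Igfbp7. Igfbp6 was 10.4-fold higher in fresh MuSC, Igfbp4 9.76-fold and Igfbp5 9.04-fold. Igfbp7 was 3.64-fold and Igf1r 3.56-fold higher. Of the 6 binding proteins 4 had thus lost more than 2-fold of their signal after 3 days of culture without OSM, and Igfbp2 and Igfbp3 lay within 2-fold. The dimmer Igfbp5 probe set fell short of 2-fold here, at 1.84-fold.

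Igf1 was 3.16-fold higher in fresh MuSC by its main probe set, at 1043 against 330, and 4.14-fold by the next, at 862 against 208. Both other Igf1 probe sets were dimmer and did not follow, with 149 in fresh MuSC against 238 in MuSC −OSM, and 104 against 115. The mean log2 ratio over the 4 probe sets was 0.72, below 2-fold, so the Igf1 call depends on the probe set. Igf2 ran the other way and was 7.23-fold lower in fresh MuSC, whereas its dim second probe set stayed within 2-fold (log2 ratio -0.66). The ligand genes, each read by its brightest probe set, thus went opposite ways, with Igf1 higher before culture and Igf2 higher after it.

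In MuSC +OSM over fresh MuSC, 2 of 9 measured genes passed 2-fold upward and 3 downward, as did 13.8% and 17.2% of all 12483 measured genes. Igf2 was 7.45-fold and Igfbp4 2.18-fold higher in MuSC +OSM. Igfbp6 was 16.8-fold lower by its only probe set, Igf1 5.40-fold and Igfbp7 2.26-fold. Both dimmer Igf1 probe sets were lower by only 1.28-fold and 1.51-fold. Igf1r, at 686 against 1369, was just short of 2-fold lower. By their main probe sets, the culture with OSM thus lay nearer to fresh MuSC for Igfbp5 and nearer to MuSC −OSM for Igf2, Igf1 and Igfbp6. By the second Igfbp5 probe set MuSC +OSM was 2.70-fold below fresh MuSC. The Igfbp4 difference fell below 2-fold after quantile normalization (log2 ratio 0.96) and as the mean of its probe sets (0.90), and the Igfbp7 difference when every array was scaled to the same median (-0.45). Igf1r passed 2-fold lower after quantile normalization (-1.21) and stood at -0.27 with the arrays scaled to the same median, where Igf2r passed 2-fold higher (1.03).

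Genes of other cell types differed between the same arrays. Of 9 fibroblast and fibro-adipogenic progenitor markers on the arrays, 9 lay above the floor before culture, 5 without OSM and 8 with OSM, and their summed signal was 35075, 1259 and 3245 in the same order. Schwann cell markers summed to 4454, 260 and 497, with 4, 2 and 4 of 4 above the floor. Tenocyte markers summed to 11219, 543 and 666, with 5, 2 and 2 of 5. Scx of the tenocyte list ran against its sum, at 48, 327 and 104 in the same order, while the other 4 peaked before culture. Igf1, Igfbp4, Igfbp5, Igfbp6 and Igfbp7 were higher in fresh MuSC as well, and with OSM 4 of the fibroblast markers were at least 2-fold higher, as Igfbp4 and Igfbp5 were. The part of these cells in the IGF signals was not tested. The sort removed cells that carry CD45, CD11b, CD31 or Sca1. Leukocyte markers summed to 1428, 240 and 249, with 3, 2 and 2 of 8 above the floor, and endothelial markers to 1264, 198 and 161, with 5, 2 and 1 of 7. The pan-leukocyte gene Ptprc and the endothelial gene Pecam1 were under the floor on all 3 arrays. Lyz2 of the leukocyte list, however, read 1204 in fresh MuSC and 13 in each culture. Of the endothelial list, Tek read 791, 42 and 25 and Cdh5 read 268, 6 and 22 in the same order. Of 7 pericyte and smooth muscle markers 4 were at least 2-fold higher and 2 lower in fresh MuSC over MuSC −OSM, and 2, Pdgfrb and Kcnj8, were higher with OSM, as Igfbp4 and Igfbp5 were. Their sums of 10071, 20449 and 15289 were mostly Acta2, at 6543, 19053 and 13114. Adipocyte markers summed to 529, 28 and 40, with 1, 0 and 0 of 3. Of 7 markers of myoblasts and differentiating muscle cells, 7 had less signal in fresh MuSC than without OSM, with summed signals of 4392 before culture, 57210 without OSM and 30967 with OSM. Igf2 was low in fresh MuSC with them by its main probe set, which differed by 1.03-fold between the cultures. Of the 7 muscle markers 2 were at least 2-fold lower with OSM and 0 at least 2-fold higher, while Myod1 read 3820 without OSM and 4148 with it. The dim other Igf2 probe set read 63 without OSM and 33 with it.

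A list of 48 further genes of IGF signalling was taken, of which 43 had a probe set of their own. With OSM 4 of 34 measured genes passed 2-fold upward and 3 downward, beside 6.07% and 4.39% of all measured genes, and the median log2 ratio was -0.09. In fresh MuSC over MuSC −OSM, 12 of 36 were higher and 7 lower, beside 20.4% and 15% of all genes, with a median of 0.22. In MuSC +OSM over fresh MuSC 5 of 35 were higher and 8 lower, beside 13.8% and 17.2%, with a median of -0.18. The medians of the list changed sign when every array was scaled to the same median, to 0.09, -0.35 and 0.60 for the 3 comparisons. Those of all measured genes were then 0.16, -0.37 and 0.57. This scaling gave 6 higher and 14 lower in fresh MuSC over MuSC −OSM and 12 higher and 7 lower in MuSC +OSM over fresh MuSC. Between the cultures it gave 5 higher and 1 lower with OSM.

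Among proteins that free or protect the ligands, Htra1, a secreted protease that cleaves binding proteins including IGFBP5, had signals of 1627 before culture, 53 without OSM and 429 with OSM. It was 8.09-fold higher with OSM by this probe set and 2.28-fold by its other one, at 230 against 101. Stc2, which encodes an inhibitor of PAPP-A, had 48, 457 and 191, and its 3 probe sets were all lower with OSM. Adamts1, a secreted metalloproteinase, had 5138, 293 and 338. Pappa, which encodes PAPP-A, and Igfbp1 were under the floor on all 3 arrays. Htra1, like Igfbp5 by its main probe set, was thus lowest in MuSC −OSM, whereas Stc2 was highest there.

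Below the receptors, Irs1, the docking protein that couples IGF1R to PI3K, had signals of 770 before culture, 1280 without OSM and 582 with OSM, or 2.20-fold lower with OSM. The related docking protein gene Irs2 had 691 in fresh MuSC and was under the floor in both cultures, so it was at least 17.3-fold higher in fresh MuSC. Pik3r1, a regulatory subunit of PI3K, had 1789, 184 and 443, and its 4 probe sets were all higher with OSM. These genes did not move one way, since Irs1 was lower and Pik3r1 higher with OSM.

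Rptor, a subunit of the mTOR complex that promotes protein synthesis, had signals of 278 before culture, 634 without OSM and 284 with OSM, or 2.23-fold lower with OSM. No other Rptor probe set was above the floor. Ghr, the growth hormone receptor, had 1081, 425 and 1026, or 2.41-fold higher with OSM. Its other probe sets read 193, 86 and 134, or 1.56-fold higher with OSM, and 110, 27 and 86. Grb14, an adaptor that inhibits the insulin receptor, had 125, 14 and 85, with only the culture without OSM under the floor. By their main probe sets and the deposited scaling, Ghr and Rptor in MuSC +OSM thus lay close to fresh MuSC. This closeness depends on the scaling. With every array scaled to the same median, the log2 ratio of Igfbp5 in MuSC +OSM over fresh MuSC rose from 0.22 to 0.95.

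Insr, the insulin receptor, had signals of 312 before culture, 457 without OSM and 327 with OSM, within 2-fold in each comparison. The forkhead factor gene Foxo1, whose protein is held inactive by AKT, had 1116, 409 and 525, and Foxo3 had 1480, 307 and 431. By these probe sets both exceeded 2-fold in fresh MuSC over either culture and lay within 2-fold between the cultures. The other Foxo1 probe sets above the floor read 1091, 411 and 287, lower with OSM, and 443, 257 and 346, within 2-fold in fresh MuSC over either culture. Foxo4 had 210, 73 and 34. The adaptor gene Grb2 had 229, 794 and 1228 and the lysosomal protease gene Ctsd 860, 2459 and 3067, both lowest in fresh MuSC. Pik3r2 had 147, 70 and 13.

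**Figure D3:**
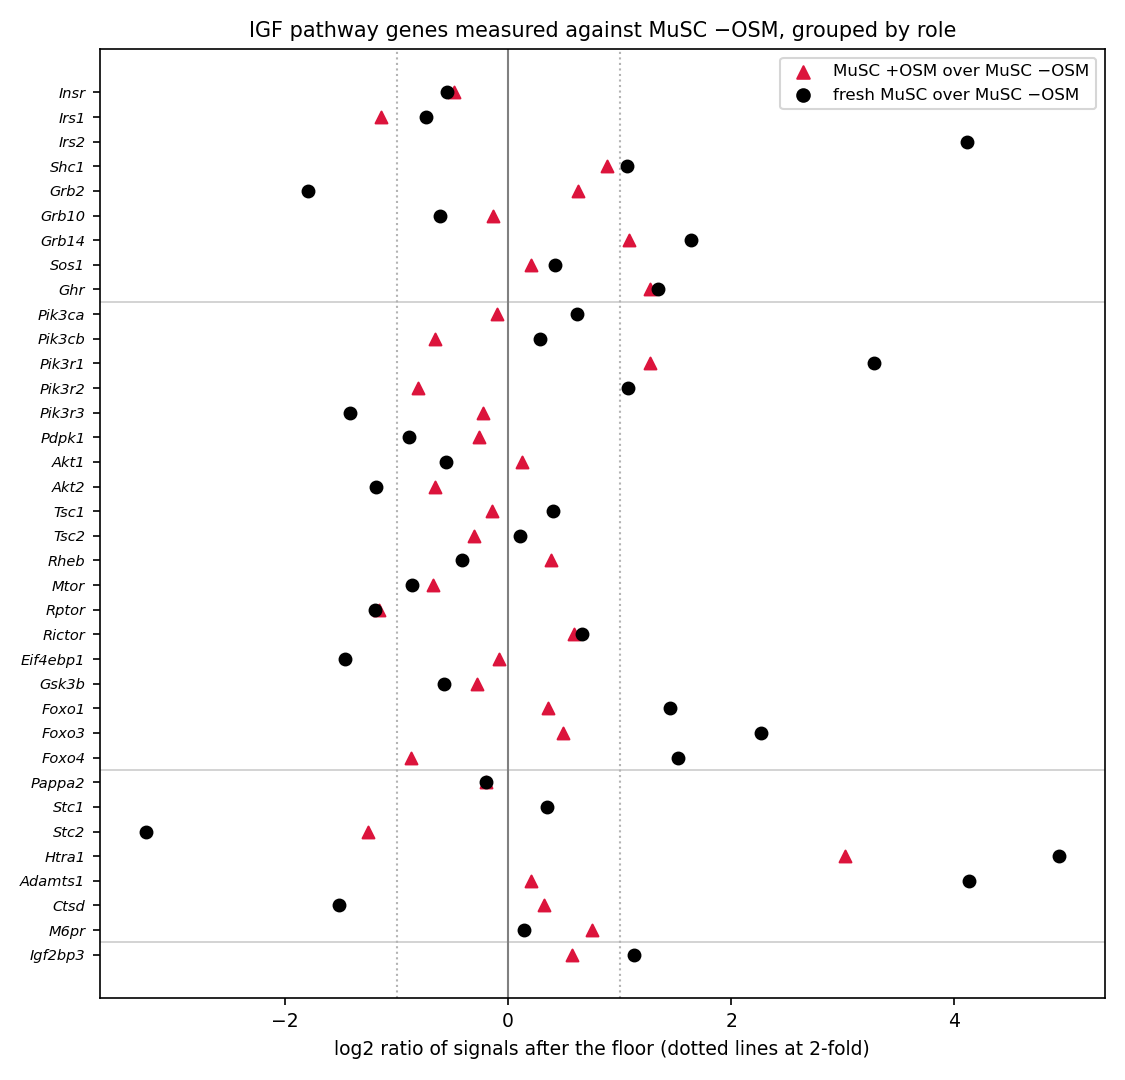
Log2 ratios to MuSC −OSM for the genes of the IGF pathway list that were measured, grouped from top to bottom as receptors and adaptors, the PI3K, AKT and mTOR chain, ligand release and carriage, and an RNA-binding protein of Igf2 mRNA, with red triangles for MuSC +OSM and black circles for fresh MuSC. Htra1 has the highest value in both comparisons, at 3.02 and 4.94, and Stc2 the lowest, at -1.26 and -3.25.

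The genes whose pair of log2 ratios, MuSC +OSM and fresh MuSC each over MuSC −OSM, lay nearest to that of Igfbp4 were Sulf1, Srgn and Inhbb, at distances of 0.33, 0.45 and 0.56 log2 units among 4869 genes. They encode a heparan sulfate endosulfatase, the proteoglycan serglycin and an activin subunit. Nearest to Igf1, the member with the lowest ratio with OSM, were Mageh1, Galnt16 and Arsb, at 0.15, 0.15 and 0.17, although Galnt16 was under the floor in MuSC +OSM. Srgn was under the floor in MuSC −OSM, so the distances of these 2 genes depend on the floor. The genes searched had a signal of at least 183 on 1 or more arrays, with any other probe sets above the floor going the same way. This filter was not applied to Igfbp4 and Igf1 themselves, and both dimmer Igf1 probe sets went the other way in fresh MuSC over MuSC −OSM. These distances rest on 3 arrays, or 2 ratios that share 1 array, and are a description only.

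**Figure D4:**
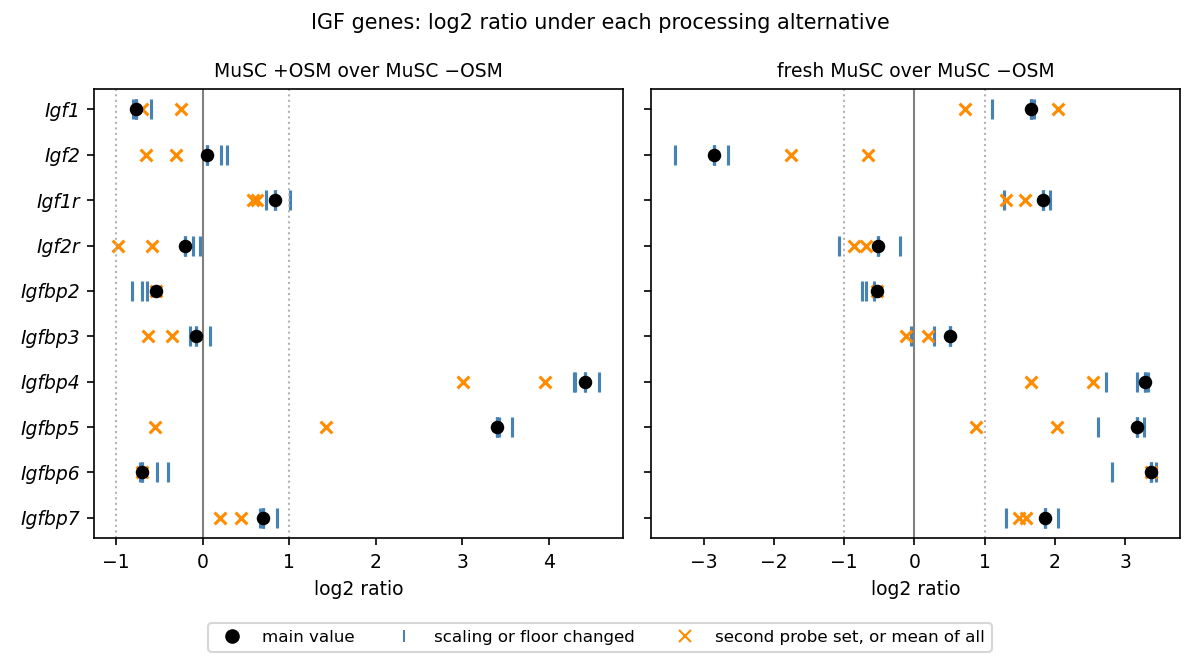
Log2 ratios of the 10 genes to MuSC −OSM under each processing alternative, for MuSC +OSM on the left and fresh MuSC on the right, with the main value as a black circle, other scalings or floors as blue bars, and the second probe set or the mean of all probe sets as orange crosses. With OSM, Igfbp4 stays between 3.01 and 4.58, whereas Igfbp5 falls to -0.55 by its second probe set.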

How the data were processed

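RNA of sorted MuSC was amplified with Affymetrix 3′ IVT Express reagents and hybridized to MOE_430_2 arrays. The authors deposited MAS5 signal intensity for each probe set, scaled by them to a common mean, as whole numbers on a linear scale (no MAS5 version is stated by the labels or methods). The 2% trimmed mean was 198 to 199 on each array. Samples were grouped by their culture labels.

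Ratios were taken with pandas 2.3.3 and numpy 2.4.6 under Python 3.11.15, after 64 control probe sets were left out and signals raised to the floor of 40, the median of all signals. A gene counted as measured where its signal passed the floor on 1 or both arrays, and a log2 ratio of at least 2-fold was counted. The annotation names 1 gene for 34945 of 45037 probe sets, several for 932 and none for 9160. Of the former, 34741 matched the mouse gene table and 0 symbols changed. A probe set shared by Igf2r and Airn was not used. Precision is limited by the number of arrays.

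The members, the pathway list and the markers were chosen with earlier results of these data known. Named were the members, pathway genes at least 2-fold apart between the cultures, Insr, Irs1, Irs2, Pappa, Foxo1 and Igfbp1, up to 6 others with large ratios, and the genes nearest to 2 members. Promoter windows are from RefSeq (GRCm38.p6), and 10 of 10 members matched. Alternatives were scaling, floor, probe set and fold threshold. The ratio step was checked on simulated data.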

Additional observations from a re-analysis of the deposited data

How the results depend on the processing

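Of 29 log2 ratios of members, 18 kept their side of 2-fold under all alternatives that gave a value and 11 did not under 1 or more. The reversed one was Igfbp5 in MuSC +OSM over MuSC −OSM, at -0.55 by its second probe set and 1.43 as the mean of both.

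With the second probe set of a gene, 1 of 8 members was higher with OSM. Of 20 pathway genes 2 were then higher and 0 lower with OSM. In fresh MuSC over MuSC −OSM, 0 of 8 members and 3 of 22 pathway genes were lower. In MuSC +OSM over fresh MuSC, 1 of 7 members and 2 of 22 pathway genes were higher. Fewer genes have such a probe set. With the mean of all probe sets, 1 member was higher in MuSC +OSM than in fresh MuSC, as after quantile normalization.

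Scaling every array to the same median moved the median of all genes from -0.01 to 0.16 with OSM, from 0.14 to -0.37 in fresh MuSC over MuSC −OSM and from -0.14 to 0.57 in MuSC +OSM over fresh MuSC. It gave 1 pathway gene lower with OSM, 2 members and 14 pathway genes lower and 6 pathway genes higher in fresh MuSC over MuSC −OSM, and 12 pathway genes higher in MuSC +OSM over fresh MuSC. The share of higher genes among all those past 2-fold went from 58.0% to 72.2% with OSM, from 57.6% to 30% in fresh MuSC over MuSC −OSM (46.7% after quantile normalization), and from 44.5% to 80.2% in MuSC +OSM over fresh MuSC (54.8%). Quantile normalization gave 5 pathway genes lower with OSM and a floor of 20 gave 6. The floor at 183 gave 7 pathway genes higher in fresh MuSC over MuSC −OSM and 3 higher in MuSC +OSM over fresh MuSC.

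At 1.5-fold, 4 of 10 members were higher and 2 lower with OSM, and 8 of 34 pathway genes were higher and 8 lower. At this threshold 11 of 36 pathway genes were lower in fresh MuSC over MuSC −OSM. In MuSC +OSM over fresh MuSC, 5 of 9 members were lower and 9 of 35 pathway genes higher. At 3-fold, 1 of 34 pathway genes was higher and 0 lower with OSM. Of 36 pathway genes 6 were then higher and 2 lower in fresh MuSC over MuSC −OSM. In MuSC +OSM over fresh MuSC, 1 of 9 members and 3 of 35 pathway genes were higher at 3-fold. Shares of all measured genes past a threshold were taken at 2-fold under the main settings only. Counts under the alternatives have no such share beside them and are a description. The cause of the shifts with scaling was not tested. Signals near the floor, as for Igfbp2, limit what can be read. No paired analysis was possible because each condition has 1 array.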
